A study of Mus musculus with 26 samples.

Results

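The integrated stress response is described here through 10 genes: the transcription factors Atf3, Atf4, Atf5 and Ddit3, the effectors Trib3, Chac1, Asns and Sesn2, and the secreted factors Fgf21 and Gdf15. They were taken by symbol from 2 deposited tables of mouse RNA-seq, which list 53465 and 55487 genes. Each of the 10 genes had 1 row in the regeneration table. In the knockdown table Ddit3 had a further row (ENSMUSG00000116429), which was at 0 in all 8 libraries and was not used.

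The first table holds tibialis anterior (TA) muscle of C57BL/6J mice, male and six-week-old by the methods. Of its 10 libraries, 5 go against that sex, as given below. The muscle was taken on days 0, 1, 3, 5 and 10 of a cardiotoxin (CTX) course (groups CTX-D0, CTX-D1, CTX-D3, CTX-D5 and CTX-D10). CTX, a toxin from cobra venom, kills the fibres while sparing the stem cells that rebuild them. The methods name saline as the control injection, and whether day 0 is untouched muscle or muscle given saline was not settled by the sources used here. The second table holds C2C12 cells, a line of mouse myoblasts, in growth medium (GM, labelled D0) or on day 3 in medium with 2% horse serum, which drives fusion into myotubes (labelled D3). By the methods, the Cas9M3 cells are a stable line that carries dCas9-KRAB with a guide to the Mettl3 promoter after lentivirus and puromycin selection. The control cells are labelled CTRL, and what construct they carry is not given in the sources used here. The deposited design text calls the Cas9M3 cells a knockout, whereas dCas9-KRAB represses a promoter without cutting it. METTL3 is the enzyme that writes N6-methyladenosine on RNA. Each of the 9 groups had 2 libraries, fewer than the minimum of independent biological samples that the methods state in general for the experiments. The labels do not say whether the libraries of a group came from separate animals or cultures, so each p measures only the spread between libraries.

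In the integrated stress response, kinases that sense amino acid shortage, misfolded protein in the endoplasmic reticulum (ER), viral RNA or heme loss phosphorylate the translation factor eIF2. Bulk translation then falls, while the mRNA of Atf4 is translated better, so that the ATF4 protein can rise without more Atf4 mRNA. ATF4 binds with C/EBP partners to the C/EBP-ATF response element and drives genes of amino acid supply and of stress, among them Asns, Chac1, Trib3 and Ddit3. Fgf21 and Gdf15 are hormones that muscle releases under mitochondrial or ER stress.

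The promoters of the genes on which the results turn are shown first, because a match to the element bound by ATF4 was found in some of the 10 genes and not in others. The letters TGATGNAA were searched on both strands in windows of 300 bases, from 250 before to 50 after each RefSeq start on GRCm38.p6, and all 10 genes had such a window. A match was found in 5 of the 10 genes (Atf3, Chac1, Trib3, Asns and Fgf21). Counted by window, it was in 5 of their 12 windows and in 3.97% of the 32851 windows of all genes. The cyclic AMP element TGACGTCA, which occurs in 1.79% of all windows, was in none of the 10 genes. Atf5 and Gdf15 have 2 windows each, and neither held a match. These are matches of letters, not measured binding. An element outside the window or with other letters would be missed, so no match does not mean no element. Capitals mark the match on either strand, and the sequences are printed on the strand of the gene, 5′ to 3′. The windows are chr7:45615441-45615740 (minus strand) for Fgf21, chr6:7693160-7693459 (minus strand) for Asns and chr2:119350992-119351291 (plus strand) for Chac1.
Fgf21: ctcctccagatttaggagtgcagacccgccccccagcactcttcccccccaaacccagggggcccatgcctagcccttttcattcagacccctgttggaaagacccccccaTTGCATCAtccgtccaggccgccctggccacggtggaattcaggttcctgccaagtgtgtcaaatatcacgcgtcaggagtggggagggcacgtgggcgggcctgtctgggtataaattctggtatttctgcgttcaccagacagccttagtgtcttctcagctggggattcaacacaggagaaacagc
Asns: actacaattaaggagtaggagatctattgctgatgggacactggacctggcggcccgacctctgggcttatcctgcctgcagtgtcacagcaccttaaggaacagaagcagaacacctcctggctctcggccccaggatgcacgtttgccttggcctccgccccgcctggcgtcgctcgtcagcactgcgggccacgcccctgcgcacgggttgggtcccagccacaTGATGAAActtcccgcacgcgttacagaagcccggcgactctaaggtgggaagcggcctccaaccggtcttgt
Chac1: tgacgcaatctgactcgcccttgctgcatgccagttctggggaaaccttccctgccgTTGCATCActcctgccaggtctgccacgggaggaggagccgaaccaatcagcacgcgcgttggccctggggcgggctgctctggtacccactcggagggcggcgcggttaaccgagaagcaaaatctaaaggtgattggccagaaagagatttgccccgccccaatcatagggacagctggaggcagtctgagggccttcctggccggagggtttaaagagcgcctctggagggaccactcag
The match begins 139 bases upstream of the start in Fgf21, 23 bases upstream in Asns and 193 bases upstream in Chac1. The genes themselves lie at chr7:45613886-45615490, chr6:7675169-7693254 and chr2:119351229-119354381 in the GENCODE M21 annotation of GRCm38, and Gdf15 lies at chr8:70629393-70632456 on the minus strand. In Atf3 the match begins 110 bases upstream, and in Trib3 it begins 14 bases after the first transcribed base.

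The files give FPKM, in which reads are divided by gene length and by a scaling factor of each library, so levels can be compared between genes. From the steps between low values, the libraries held 14170000 to 18820000 reads on genes in the first table and 14230000 to 29570000 in the second. In every cell group replicate 1 was the deeper library, with 25170000 to 29570000 reads against 14230000 to 18900000 in replicate 2. At this scaling, 1 read on a gene of 1 kb was worth at most 0.0817 and 0.1036 FPKM. That worth did not follow the reads alone. In replicate 1 of day 0 it was 0.0803 FPKM at 16780000 reads, and in replicate 1 of day 3 it was 0.0507 FPKM at 14330000 reads. A gene was tested if 2 or more libraries reached 0.5 FPKM, which kept 16753 and 13824 genes and all 10 members in both tables. Fgf21 passed this filter in the regeneration table through the 2 day 3 libraries alone. Gdf15 passed it there through the same 2 libraries and replicate 2 of day 5. In the knockdown table Fgf21 passed through both CTRL libraries on D3 and replicate 1 of Cas9M3 in GM. Log2 of FPKM plus 0.1 was fitted with limma over all groups of a table, and a gene was called at a Benjamini-Hochberg adjusted p of at most 0.05 over all genes tested. Fold changes are log2 differences on this scale, given with their SE, and understate the change of low genes. For 2 libraries against 2, the smallest two-sided p an exact permutation test allows is 0.333, so every p rests on this model. Of the 10 CTX libraries, 5 held 5.77 to 10.0 FPKM of Xist, the RNA of the inactive X chromosome (both libraries of days 0 and 10, and replicate 2 of day 3), and the others 0.017 to 0.152 FPKM. Ddx3y, a gene of the Y chromosome, was 0.0145 to 0.101 FPKM in the 5 libraries with Xist and 6.1 to 11.4 in the others. Eif2s3y, Kdm5d and Uty split the libraries in the same way. The methods name male mice, so the 5 libraries with Xist read as female and go against that description. A fit with a term for Xist is given beside each call of the 10 genes that it changes. The gene lists and cell markers below are given from the fit without that term only. That term rests on the 2 day 3 libraries, since each other day is of 1 kind. Between day 0 or 10 and day 1 or 5, sex and time cannot be told apart. Mettl3 was 3.59 to 4.97 FPKM over the course and was not called between any days compared.

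The genes split on day 3 of regeneration. Against day 0, 8 of 10 were called, where 48.8% of all tested genes were. Fgf21, Gdf15, Asns and Sesn2 were higher (4 genes, with 24.5% of all genes called higher). Chac1, Atf5, Ddit3 and Atf4 were lower (4 genes, with 24.3% called lower). The median over the 10 genes was -0.30, and it was 0.01 over all tested genes. Atf3 (-0.16 ± 0.58) and Trib3 (-0.45 ± 0.34) were not called, with adjusted p = 0.843 and 0.308 (limma). The share called is high among all genes on this day, so the counts are read against it and not as a property of these genes.

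**Figure D1:**
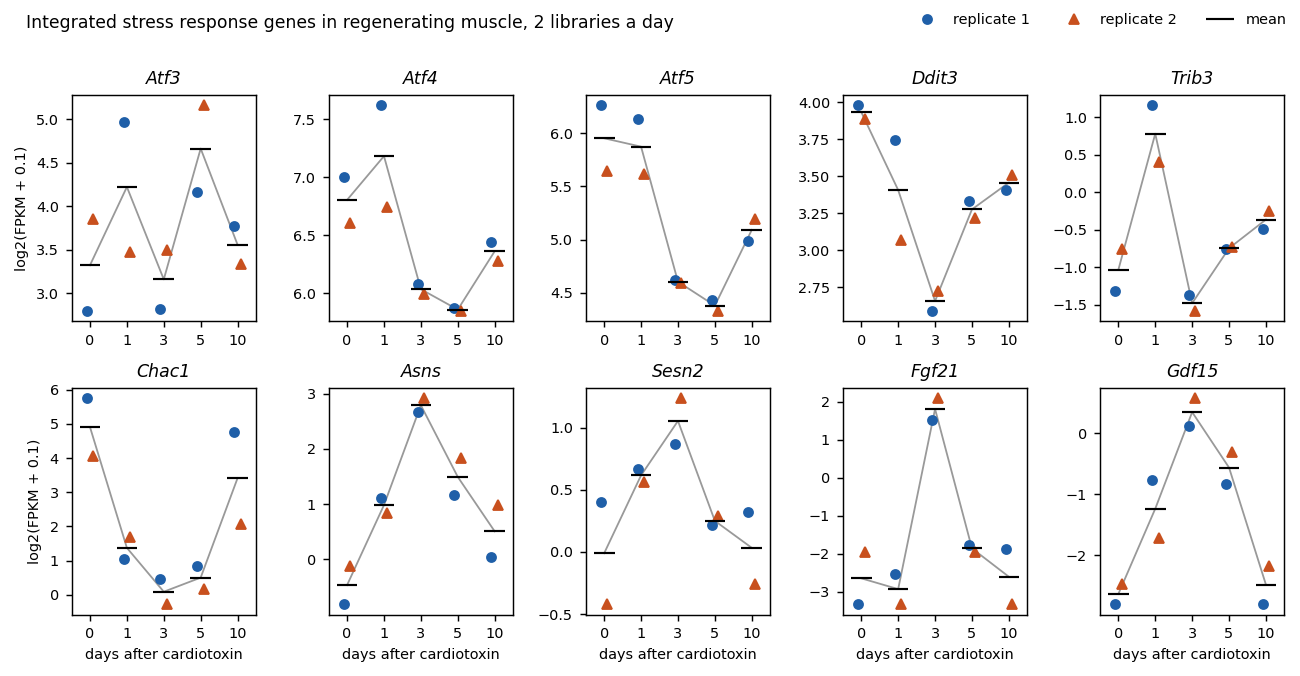
Log2(FPKM + 0.1) of the 10 genes in TA muscle against days after cardiotoxin. Circles are replicate 1, triangles replicate 2, black bars the mean of the 2 libraries, and grey lines join the means. Fgf21, Gdf15, Asns and Sesn2 peak on day 3, while Chac1, Ddit3, Atf4 and Atf5 are below day 0 there.

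Fgf21, a hormone of fasting and stress that acts through FGF receptors with the co-receptor beta-Klotho, was measured on day 3 and hardly elsewhere. Its FPKM was 2.77 and 4.16 in the day 3 libraries. Day 0 had 0 and 0.157, day 1 had 0.0734 and 0, day 5 had 0.194 and 0.16, and day 10 had 0.172 and 0. Both day 3 libraries stood above all 8 others. These values correspond to 132 reads on day 3, against 2 for day 0, 1 for day 1, 6 for day 5 and 2 for day 10. The ratio of the day 3 level to that of day 0 was 42.6 with an exact 95% interval of 11.6 to 356, which covers counting error only. Against day 5 the ratio was 19.8 (8.88 to 55.0). On the fitted scale the difference from day 0 was 4.45 ± 0.68 (adjusted p = 0.00167, limma), but this size moves with the pseudocount, from 2.04 to 6.38 over the alternatives. Fgf21 was tested in this table only because its day 3 libraries passed the filter. Its calls between day 3 and any other day, here and below, are therefore not independent of that filter.

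Gdf15, a distant relative of TGF-beta that curbs appetite through the receptor GFRAL, had a broader peak. By day, its FPKM was 0.0433 and 0.0809 (day 0), 0.49 and 0.205 (day 1), 0.985 and 1.39 (day 3), 0.464 and 0.712 (day 5) and then 0.0441 and 0.122 (day 10). The libraries of days 1, 3 and 5 all lay above those of days 0 and 10. Its reads numbered 3 for day 0, 18 for day 1, 88 for day 3, 40 for day 5 and 4 for day 10. The day 3 level was 19.0 times that of day 0, with an exact 95% counting interval of 6.29 to 93.8. The fitted difference was 2.98 ± 0.47 (adjusted p = 0.00194, limma). Without the day 3 libraries Gdf15 would not have been tested in this table. Its calls between day 3 and any other day, here and below, are therefore not independent of the filter.

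Asns makes asparagine from aspartate and is a classic target of ATF4. Its FPKM rose from 0.47 and 0.821 on day 0 to 6.22 and 7.45 on day 3, a log2 difference of 3.25 ± 0.38 (adjusted p = 0.000624, limma). It was 2.07 and 1.7 (day 1), 2.13 and 3.45 (day 5) and then 0.926 and 1.87 (day 10). The day 3 libraries lay above all others, and days 1 and 5 lay above day 0. Sesn2, a leucine sensor that restrains mTORC1, was 1.73 and 2.26 FPKM on day 3 against 1.22 and 0.647 on day 0. This difference of 1.07 ± 0.32 was called (adjusted p = 0.026, limma), and it lost the call under 4 of 9 alternatives, the term for Xist among them, and without replicate 2 of day 0 or either library of day 3.

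Chac1, which degrades glutathione, moved the other way. By day, its FPKM was 53.9 and 16.6 (day 0), 1.96 and 3.16 (day 1), 1.27 and 0.725 (day 3), 1.69 and 1.02 (day 5) and then 27.0 and 4.1 (day 10). The libraries of days 1, 3 and 5 all lay below those of days 0 and 10, and the 2 libraries of day 0 and of day 10 were 3.24 and 6.6 times apart. The fall on day 3 was -4.82 ± 0.88 (adjusted p = 0.00339, limma). Chac1 and Asns both carry the match to the ATF4 element shown above and were called in opposite directions.

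Trib3, a pseudokinase that damps AKT and ATF4 activity, was highest on day 1, at 2.14 and 1.22 FPKM. It was 0.302 and 0.493 (day 0), 0.286 and 0.233 (day 3), 0.491 and 0.501 (day 5) and then 0.615 and 0.745 (day 10). Both day 1 libraries lay above all others. The day 1 libraries of Atf4 and Atf3 spread widely, and Trib3 alone of the 10 genes was called on that day.

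Atf4, the central factor of the response, had the highest level of the 10 genes on every day of regeneration. By day, its FPKM was 128 and 97.5 (day 0), 197 and 107 (day 1), 67.4 and 63.6 (day 3), 58.5 and 57.4 (day 5) and then 86.9 and 77.7 (day 10). Days 3 and 5 lay below all other libraries. The difference on day 3 was -0.77 ± 0.27 with adjusted p = 0.0479 (limma), close to the threshold. The call ended under 3 of 9 alternatives, the term for Xist among them, and stood in 2 of the 10 fits that left out a library, those without either library of day 1. Atf5, a factor tied to the mitochondrial unfolded protein response, fell from 76.7 and 49.8 FPKM to 24.5 and 24.0 (-1.34 ± 0.24, adjusted p = 0.00301, limma). It was 70.0 and 48.9 (day 1), 21.5 and 20.0 (day 5) and then 31.6 and 36.6 (day 10).

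Ddit3 encodes CHOP, a factor that promotes death under lasting ER stress. By day, its FPKM was 15.7 and 14.7 (day 0), 13.3 and 8.31 (day 1), 5.92 and 6.52 (day 3), 10.0 and 9.21 (day 5) and then 10.5 and 11.3 (day 10). The day 3 libraries were the lowest of all, with a difference from day 0 of -1.28 ± 0.21 (adjusted p = 0.00225, limma). Exons of Ddit3 share 68 bases with Mars on the other strand, and those of Atf5 share 82 bases with Nup62 and Il4i1. Exons of Mettl3, whose level is given above and below, share 933 of 5076 bases with Tox4 on the other strand. The strand used in counting is not stated, so reads there cannot be assigned.

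Atf3, an early stress gene that can repress or activate its targets, was not called in any of the 12 comparisons made in the 2 tables. By day, its FPKM was 6.82 and 14.3 (day 0), 31.2 and 11.0 (day 1), 6.94 and 11.2 (day 3), 17.8 and 35.7 (day 5) and then 13.6 and 9.98 (day 10). Libraries of 1 day differed by up to 2.83 times, and those of days 0, 1, 3 and 10 overlapped. Those of day 5 overlapped day 1 and lay above days 0, 3 and 10. At an unadjusted p, the rise from day 3 to day 5 of 1.5 ± 0.58 stood at 0.033 and the adjusted p at 0.134 (limma).

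**Figure D2:**
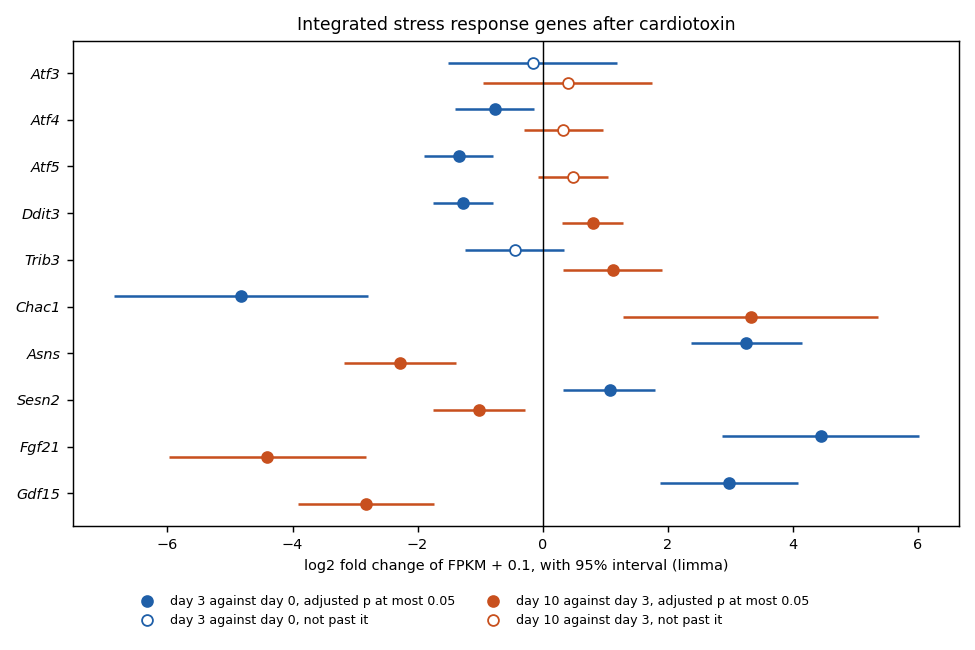
Log2 fold changes of FPKM + 0.1 with 95% intervals from limma for the 10 genes in TA muscle, day 3 against day 0 (blue) and day 10 against day 3 (orange). Filled circles have an adjusted p of at most 0.05. Asns, Sesn2, Fgf21 and Gdf15 lie right of 0 on day 3 and left of 0 from day 3 to day 10. Both comparisons use the same day 3 libraries.

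The other days frame this peak. On day 1 against day 0 only Trib3 was called, by 1.81 ± 0.34 (adjusted p = 0.0319, limma), where 6.0% of all genes were called and 3.53% were called higher. It was no longer called with a term for Xist, and it kept the call in 3 of the 10 fits that left out a library, those without replicate 2 of day 1 or either library of day 10. From day 1 to day 3, 7 of 10 genes were called (31.1% of all genes). Fgf21 (4.73), Asns (1.81) and Gdf15 (1.58) were higher, with 14.5% of all genes called higher. Trib3 (-2.26), Atf5 (-1.27), Atf4 (-1.15) and Ddit3 (-0.75) were lower, with 16.6% called lower. With a term for Xist, Trib3 and Fgf21 kept the call. Without replicate 1 or replicate 2 of day 3 the count was 3 or 2.

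On day 5 against day 0, 5 of 10 genes were called (25.5% of all genes). Gdf15 (2.07 ± 0.47) and Asns (1.96 ± 0.38) were still higher (12.9% of all genes called higher), and Chac1 (-4.41 ± 0.88), Atf5 (-1.57 ± 0.24) and Atf4 (-0.95 ± 0.27) were lower (12.5% called lower). With a term for Xist none was called. Leaving out replicate 1 of day 0 or replicate 2 of day 5 also gave 0, and leaving out replicate 1 of day 5 gave 2. From day 3 to day 5, Fgf21 alone was called, by -3.66 ± 0.68 (adjusted p = 0.0167, limma), with 12.7% of all genes called and 5.46% called lower. That call ended with a term for Xist, with a pseudocount of 0.01, and without any 1 library of day 3 or day 5.

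On day 10 no gene was called against day 0. In that comparison limma called 0 of 10 genes (2 at an unadjusted p under 0.05, Atf5 and Asns) and 1 gene of all, or 0.00597%. The lowest adjusted p of the 10 was 0.404. Against day 3, 7 of 10 were called (37.9% of all genes). Chac1 (3.33 ± 0.88), Trib3 (1.12 ± 0.34) and Ddit3 (0.80 ± 0.21) were higher (19.1% called higher), and Fgf21 (-4.41 ± 0.68), Gdf15 (-2.83 ± 0.47), Asns (-2.28 ± 0.38) and Sesn2 (-1.02 ± 0.32) were lower (18.8% called lower). With a term for Xist, Asns, Fgf21 and Gdf15 kept the call. The count was 3 without either library of day 3 and 4 without either library of day 10.

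Genes around the 10 were read from 11 lists, whose counts on day 3 against day 0 stand beside 24.5% of all genes called higher and 24.3% called lower. They come from the fit without a term for Xist, and day 1 differs from day 0 in sex as well as in time. Of 12 enzymes of serine, one-carbon and amino acid synthesis that ATF4 is known to drive, 7 were called higher and 2 lower. Phgdh (4.13 ± 0.53), the entry step of serine synthesis, went from 0.42 to 8.98 mean FPKM, Psat1 in the next step rose by 3.65 ± 0.69 and Mthfd1l of the mitochondrial folate cycle by 2.84 ± 0.49. The median of the list was 1.39. On day 1 against day 0, 3 of the 12 were already higher and 1 lower, where 3.53% of all genes were called higher. Psat1 was 3.79 ± 0.69 and Mthfd2 2.40 ± 0.46 above day 0 on day 1. From day 1 to day 3 the median of the list was 0.01. Amino acid transporters had 4 of 7 tested higher and 0 lower, with Slc7a5 (2.99 ± 0.39), the leucine carrier, and Slc1a4 (2.98 ± 0.36) ahead and Slc1a5 at 0.97 ± 0.27. On day 1 against day 0, 2 of these 7 were higher and 0 lower. Of 20 cytosolic aminoacyl-tRNA synthetases 1 was called higher and 8 lower, with a median of -0.21. Mars (-1.0), Sars (-0.81) and Cars (-0.81), which charge tRNA with methionine, serine and cysteine, were the furthest. Chaperones and sensors of the unfolded protein response of the ER had 10 of 20 genes higher on day 1, where 3.53% of all genes were, and 11 higher with 1 lower on day 3. Sdf2l1, a component of ER chaperone complexes, was 3.84 ± 0.38 above day 0 on day 1 and 2.55 ± 0.38 on day 3, and Pdia4 and Edem1 were 2.17 and 1.98 above on day 3.

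Mitochondrial proteases and chaperones had 0 of 9 tested higher and 7 lower on day 3, with a median of -0.82. Oma1 (-1.38), whose protease relays mitochondrial stress to the response, Lonp1 (-1.36) and Clpx (-1.21) were the furthest. Of 13 sensors and eIF2 subunits 4 were higher and 5 lower, not far from the shares over all genes. Eif2ak2 (PKR, 1.39) and Eif2ak3 (PERK, 1.04) were higher and Eif2b4, a subunit of the eIF2 exchange factor, was lower (-0.95). Among partner factors of ATF4, 3 of 6 were higher and 2 lower, with Jdp2 at 2.34, Cebpb at -1.42 and Cebpg at -1.01. Further stress targets had 3 of 8 higher and 1 lower, with Bcl2l11 (1.36) and Tnfrsf10b (1.15), which promote apoptosis, higher and Vldlr (-2.74) lower. Targets of p53, which also induces Gdf15, had 3 of 10 higher and 3 lower, also near those shares, with the cell cycle inhibitor Cdkn1a at 3.24 and Phlda3 at -1.77. Of relatives of the members, 1 of 8 tested was higher (Atf6b, 0.77) and 4 were lower, among them Chac2 (-1.68) and Trib2 (-1.23). All adjusted p of the genes named here were at most 0.0373 (limma).

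The receptors of the hormones were read in the same libraries. Fgfr4 and Fgfr1 were 2.54 ± 0.32 and 1.18 ± 0.16 above day 0 on day 3, and 2 of 4 receptor genes tested were higher and 0 lower. Klb, the co-receptor of FGF21, was at most 0.0706 FPKM and was not tested, and Gfral, the receptor of GDF15, was listed at 0 in all 10 libraries. From day 3 to day 10, where 19.1% of all genes were called higher and 18.8% lower, 2 of 12 enzymes were higher and 5 lower, 0 of 7 transporters were higher and 3 lower, and 0 of 20 genes of the unfolded protein response were higher and 8 lower. Of 9 mitochondrial genes 5 were higher and 1 lower, of 20 synthetases 7 and 1, of 13 sensors 4 and 3, and of 10 p53 targets 2 and 1. In the other 4 lists 4 genes were higher and 7 lower. This comparison shares the day 3 libraries with the one against day 0, so the signs of the 2 are not independent.

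**Figure D3:**
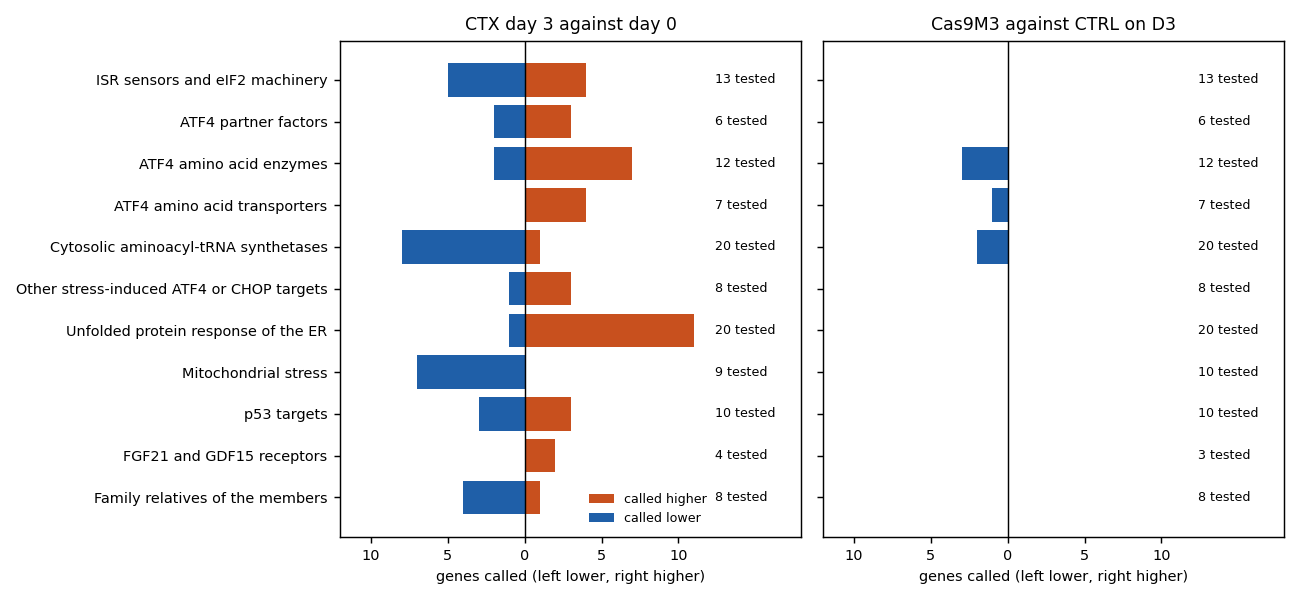
Genes of 11 lists called by limma at an adjusted p of at most 0.05, for CTX day 3 against day 0 (left) and Cas9M3 against CTRL on D3 (right). Bars to the right count genes called higher and bars to the left genes called lower, and the number tested is given at the right of each bar. On day 3 of regeneration 7 amino acid enzymes and 11 unfolded protein response genes are called higher, and in Cas9M3 cells the calls are 6 lower genes in 3 lists.

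The cell makeup of the muscle moved with these values. All 8 markers of mature fibres were lower on day 3 and their summed FPKM was 12300 to 14300, against 48800 to 51600 on day 0. All 6 markers of new myotubes were higher, with sums of 988 to 1510 against 19.3 to 44.2, and all 8 markers of macrophages and monocytes were higher, with 1240 to 1250 against 37.8 to 75.7. On day 1 the macrophage sum was 304 to 353 and the myotube sum 33.7 to 66.8, on day 5 they were 334 to 360 and 396 to 496, and on day 10 they were 49.0 to 212 and 50 to 109. Itgam, 1 of the 8 macrophage and monocyte markers, was at 0 in both day 0 libraries, where the sum of the 8 was 37.8 to 75.7. Of fibroblast markers 3 of 5 were higher on day 3. In bulk tissue, fewer cells of a type and less RNA per cell cannot be told apart, and the part of these changes in the levels of the 10 genes was not tested.

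The genes whose profile over the 10 CTX libraries was nearest to that of Fgf21 were BC051019, 1520401A03Rik and Smim5, with root mean square differences of 0.525, 0.573 and 0.585 on the centred log2 scale. All were highest on day 3, at a mean of 2.11, 2.08 and 15.2 FPKM. For Gdf15 they were Nectin4 (0.259), an adhesion protein, Ccdc88b (0.271) and Me2 (0.272), a mitochondrial malic enzyme.

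In C2C12 cells the repression of Mettl3 was checked first. Mettl3 was 4.7 and 5.65 FPKM in CTRL cells in GM and 4.68 and 5.15 on D3, and 0.331 and 0.118 in Cas9M3 cells in GM and 0.148 and 0.0805 on D3. All Cas9M3 libraries lay below all CTRL libraries. The fitted difference was -4.56 ± 0.40 on D3 (adjusted p = 0.0187, limma) and -4.10 ± 0.40 in GM, where it was not called (adjusted p = 0.188).

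Asns and Chac1 were lower in Cas9M3 cells on D3. They were the 2 of 10 genes called, with 1.98% of all tested genes called and 0.687% called lower. Asns was 30.3 and 30.3 FPKM in CTRL cells on D3 and 7.81 and 9.01 in Cas9M3 cells, a difference of -1.84 ± 0.18 (adjusted p = 0.0187, limma). Chac1 was 19.1 and 22.2 FPKM against 6.66 and 6.9, a difference of -1.59 ± 0.24 (adjusted p = 0.0372, limma). In each gene the 2 groups did not overlap. On D3 the Cas9M3 libraries lay below the CTRL libraries without overlap in 7 of the 10 genes and in 34.2% of all tested genes, and above them in 1 (Gdf15) and in 29.3%. Both calls ended when any 1 of the 4 D3 libraries was left out, with adjusted p up to 0.254 for Asns and 0.328 for Chac1, and both stood under the 8 other alternatives. With only the 2 groups compared in the fit, 5 of 10 genes were called, with Atf4, Trib3 and Fgf21 lower as well. With the replicate number as a block the same 2 genes were called, and 505 genes of all in place of 274.

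**Figure D4:**
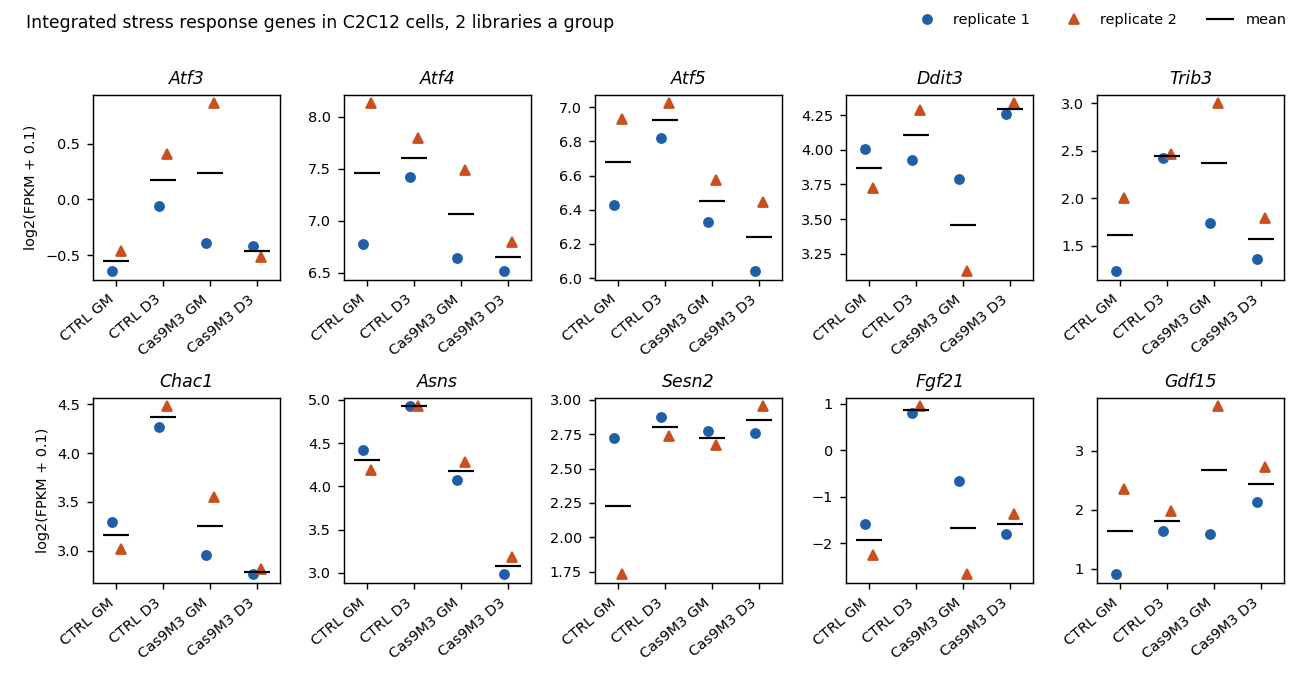
Log2(FPKM + 0.1) of the 10 genes in C2C12 cells labelled CTRL or with Mettl3 repression (Cas9M3), in growth medium (GM) or on D3. Circles are replicate 1, triangles replicate 2 and bars the mean of the 2 libraries. Asns, Chac1 and Fgf21 are highest in CTRL cells on D3.

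Fgf21 had the lowest level of the 10 genes in CTRL cells in GM and in both Cas9M3 groups, and only Atf3 was lower in CTRL cells on D3. It was 0.232 and 0.109 FPKM in CTRL cells in GM, 1.65 and 1.83 in CTRL cells on D3, 0.533 and 0.0573 in Cas9M3 cells in GM, and 0.189 and 0.286 in Cas9M3 cells on D3. Both CTRL libraries on D3 lay above the other 6. The reads numbered 72 there, and 8, 17 and 9 in the other groups in the same order. The level of CTRL on D3 was 7.73 times that of Cas9M3 on D3 (exact 95% counting interval 3.85 to 17.6) and 8.45 times that of CTRL in GM (4.07 to 20.3). Without the CTRL libraries on D3 Fgf21 would not have been tested in these cells. Fitted comparisons with that group, here and below, are therefore not independent of the filter. Over libraries the fitted difference between Cas9M3 and CTRL on D3 was -2.46 ± 0.71 and was not called (adjusted p = 0.144, limma). It was called with a pseudocount of 1 (adjusted p = 0.0438) and with only the 2 groups compared in the fit (0.00927), and its adjusted p was up to 0.236 under the other settings and up to 0.552 with a library left out.

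Gdf15 ran otherwise. It was 1.77 and 5.03 FPKM in CTRL cells in GM, 3.01 and 3.83 in CTRL cells on D3, 2.89 and 13.4 in Cas9M3 cells in GM, and 4.3 and 6.54 in Cas9M3 cells on D3. On D3 both Cas9M3 libraries lay above both CTRL libraries, by 0.63 ± 0.78 (adjusted p = 0.779, limma), a 95% interval of -1.25 to 2.51. Gdf15 thus stood at a higher level in cultured myoblasts than Fgf21 in all 8 libraries, whereas in muscle on day 3 Fgf21 stood above Gdf15.

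None of the transcription factors, Trib3 or Sesn2 was called. Atf4 was 171 and 222 FPKM in CTRL cells on D3 and 91.5 and 111 in Cas9M3 cells, and Atf5 was 113 and 130 against 65.7 and 87.0. The groups did not overlap in either gene, with differences of -0.95 ± 0.50 (adjusted p = 0.411, limma) and -0.68 ± 0.26 (adjusted p = 0.249). Trib3 was 5.27 and 5.4 FPKM against 2.46 and 3.36 (-0.87 ± 0.46, adjusted p = 0.424). Atf3 was 0.863 and 1.23 against 0.65 and 0.6 (-0.64 ± 0.47, adjusted p = 0.587). Ddit3 (15.1 and 19.4 against 19.0 and 20.1) and Sesn2 (7.23 and 6.55 against 6.66 and 7.64) overlapped between the groups, with 95% intervals of the difference of -0.46 to 0.84 and -0.74 to 0.84.

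In GM, limma called 0 of 10 genes between Cas9M3 and CTRL cells, 0 at an unadjusted p under 0.05, and 0% of all genes. The 2 GM libraries of each line differed widely. Atf4 was 110.1 and 280.2 FPKM in CTRL cells and 99.7 and 180.3 in Cas9M3 cells, and Trib3 was 2.25 and 3.9 against 3.25 and 7.89. Replicate 2 was the higher for Atf4, Atf3, Atf5, Trib3 and Gdf15 in both lines. It was the lower for Fgf21, Ddit3 and Sesn2 in both lines. Replicate 2 was also the library with fewer reads in both lines, and the part of depth was not tested. The summed FPKM of 6 myotube markers was 21.3 and 5.67 in CTRL cells and 27.0 and 0.971 in Cas9M3 cells, also lower in replicate 2, and its part in these values was not tested.

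From GM to D3, all 10 genes had a higher fitted level in CTRL cells, but limma called 0 of them (3 at an unadjusted p under 0.05), with 1.14% of all genes called and 411 genes in place of 158 with the replicate block. Fgf21 had 2.80 ± 0.71 (adjusted p = 0.133), Chac1 1.22 ± 0.24 (0.0839) and Asns 0.62 ± 0.18 (0.165). Asns was 21.4 and 18.2 FPKM in CTRL cells in GM, and Chac1 9.74 and 7.97. Without replicate 1 of CTRL in GM, 4 genes were called, namely these 3 and Sesn2. In Cas9M3 cells 3 of 10 had a higher and 7 a lower fitted level, and limma called 0 (2 at an unadjusted p under 0.05), with 0.0289% of all genes called. Asns was 16.8 and 19.4 FPKM in GM there (-1.09 ± 0.18, adjusted p = 0.0814), and Chac1 was 7.66 and 11.6 (-0.47 ± 0.24, adjusted p = 0.523).

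**Figure D5:**
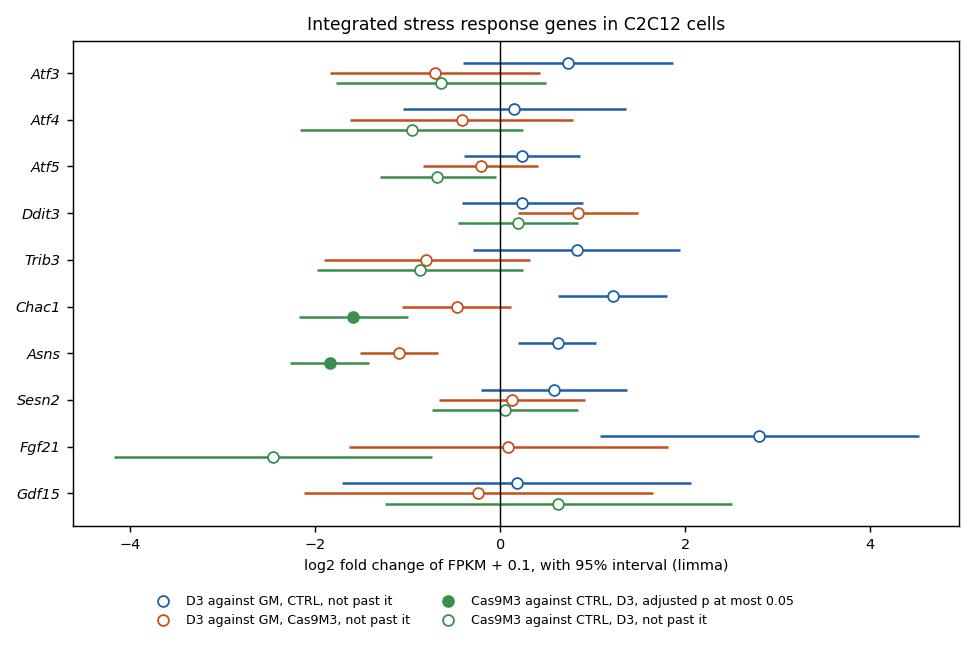
Log2 fold changes of FPKM + 0.1 with 95% intervals from limma for the 10 genes in C2C12 cells, D3 against GM in CTRL cells (blue) and in Cas9M3 cells (orange), and Cas9M3 against CTRL on D3 (green). Filled circles have an adjusted p of at most 0.05. Asns and Chac1 are the filled pair, in green. The comparisons share libraries.

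The test of the difference itself, the effect of Mettl3 repression on D3 minus that in GM, called 0 of 10 genes (4 at an unadjusted p under 0.05) and 0% of all genes. The values were -1.71 ± 0.25 for Asns (unadjusted p = 0.00037, adjusted p = 0.266, limma), -1.69 ± 0.34 for Chac1 (adjusted p = 0.282), -1.62 ± 0.65 for Trib3 (0.561) and -2.72 ± 1.01 for Fgf21 (0.531). An effect on D3 that differs from that in GM was thus not shown for any of the 10 genes.

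In 3 of the 11 lists 6 genes were lower in Cas9M3 cells on D3, where 0.687% of all genes were called lower. Among amino acid enzymes 3 of 12 tested were lower and 0 higher, with a list median of -1.12 against -0.05 over all genes. Mthfd2 went from 20.1 mean FPKM in CTRL to 3.95 in Cas9M3 cells (-2.31 ± 0.23, adjusted p = 0.0187), Psat1 from 53.1 to 15.3 (-1.79 ± 0.18, 0.0199) and Phgdh from 39.5 to 14.8 (-1.41 ± 0.15, 0.0203), all by limma. Of 7 transporters 1 was lower, Slc7a5, from 34.9 to 9.22 FPKM (-1.90 ± 0.22, adjusted p = 0.0227, limma). Of 20 synthetases 2 were lower, Mars1 (-1.37 ± 0.20) and Cars (-1.10 ± 0.19), with a list median of -0.61. Further stress-induced targets of ATF4 or CHOP had 0 of 8 called and a median of 0.25. In all 8 lists without a call, which include these, the unfolded protein response, mitochondrial genes and p53 targets, 0 of 78 genes were called and 17 had an unadjusted p under 0.05.

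The myotube state of the cells moved with these values. The summed FPKM of the 6 myotube markers was 350 and 308 in CTRL cells on D3 and 9.35 and 6.69 in Cas9M3 cells on D3. Of the 5 markers tested 0 were called, with a median difference of -4.88. The paper reports the other direction for its Mettl3 knockdown cells. It describes more myosin heavy chain protein, and on day 3 of differentiation more fusion and higher RNA of fusion genes by RT-qPCR. Why these libraries differ from that report was not tested. The 8 macrophage and monocyte markers summed to 8.32 and 9.35 FPKM in CTRL cells on D3 and to 20.6 and 24.7 in Cas9M3 cells, and of the 3 tested 1 was called higher. Of these 8 markers Adgre1 and Itgam were at 0 in all groups, as were the 5 markers of T and NK cells. The part of these marker levels in the lower Asns and Chac1 was not tested, and Mettl3 repression and the low myotube markers cannot be told apart in these groups.

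The genes nearest in profile to Fgf21 over the 8 cell libraries were Itga10 (0.251), an integrin chain that binds collagen, Mylk4 (0.291) and Pygm (0.342), the glycogen phosphorylase of muscle. All were highest in CTRL cells on D3, at a mean of 4.39, 0.75 and 3.21 FPKM. For Gdf15 they were Nr1d1 (0.211), a nuclear receptor of the circadian clock, Loxl3 (0.301) and Gprc5a (0.351). For Asns, looked at after its values were seen, the 5 nearest were Tuba4a (0.163), Psat1 (0.193), Mars1 (0.243), Phgdh (0.251) and Mthfd2 (0.254), of which all but Tuba4a are in the lists above.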

How the data were processed

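RNA-seq libraries of TA muscle and C2C12 cells, 2 per group, were analysed. Reads were aligned to GRCm38 with HISAT2 and counted with featureCounts, and the authors deposited FPKM from DESeq2 (its function fpkm), with a separate scaling for each table. Versions and the strand setting are not given in the sources used here. Groups came from the labels. The Mettl3 overexpression libraries were not analysed here.

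Read steps were found with exon lengths of GENCODE M21, within 0.05 of a read, and whole multiples made up at least 97.23% and 98.73% of low values. Log2(FPKM + 0.1) was fitted with limma 3.58.1 in R 4.3.3. On simulated data with 200 genes changed by 4 on the log2 scale, the step called 176 of them for day 3 against day 0 and 166 for Cas9M3 against CTRL on D3. In the knockdown table the correlations of same-numbered libraries were 0.278 to 0.680, all above 0.1, so the numbers pair the libraries by this measure. The labels give no reason for this. Replicate 1 was the deeper library in every cell group, so replicate number and depth cannot be told apart there. Promoter windows came from RefSeq. Other steps used Python 3.11.15, pandas 2.3.3, numpy 2.4.6, scipy 1.17.1 and matplotlib 3.10.9.

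Named genes were the 10 members in every comparison, up to 3 called genes per list with the largest fold change, the 3 profiles nearest to Fgf21 and Gdf15, and Mettl3. The profiles near Asns and the markers named were chosen after values were seen. The members and lists were chosen with earlier results of these data known. Alternatives were pseudocounts of 1 and 0.01, no filter, a filter set at 1 FPKM, scaling by median ratios, normalization by quantiles, fits of the compared groups alone, a block for replicate number, a term for Xist and each library left out.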

Additional observations from a re-analysis of the deposited data

Results flagged for a closer look

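In 3 genes the 2 cell lines moved in opposite directions from GM to D3 with no overlap between libraries, rising in CTRL and falling in Cas9M3 cells. Opposite moves without overlap were found in 5.76% of the 13824 tested genes, and a rise in CTRL with a fall in Cas9M3 cells in 3.07%. The change in Cas9M3 cells minus that in CTRL cells was -1.71 for Asns, -1.69 for Chac1 and -1.43 for Atf3 on the log2 scale. The test of this difference in limma gave adjusted p = 0.266, 0.282 and 0.605, so none was called. Atf3 was 0.54 and 0.625 FPKM in CTRL cells in GM and 0.863 and 1.23 on D3, and 0.662 and 1.72 in Cas9M3 cells in GM and 0.65 and 0.6 on D3. Its lack of overlap in Cas9M3 cells rests on replicate 1, at 0.6619 FPKM in GM and 0.6496 on D3. These lie closer together than the worth of 1 read in either library (0.0147 and 0.0167 FPKM). Groups of 2 libraries are too small for the check of single outlying libraries.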

How the results depend on the processing

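No called value changed sign in 1013 alternative fits of single values or in 1100 with a library left out. Both numbers include values that were not called, of which 12 and 38 changed sign. Among the 1013 fits, 46 lost a call and 16 gained one, and only values called at first could lose one. Against day 0, the day 3 calls of Atf5, Ddit3, Chac1, Asns, Fgf21 and Gdf15 stood under every alternative run. The count of the 10 genes called on day 1 against day 0 was 1, and became 0 without a filter, with only the groups compared or with a term for Xist, 2 with a filter at 1 FPKM, where 9 of the genes were fitted, and 3 with the replicate block. On day 5 against day 0 it went from 5 to 3 with quantile normalization, 2 with only the groups compared and 0 with the term for Xist. From day 1 to day 3 it went from 7 to 4 with only the groups compared and 2 with the term for Xist. From day 3 to day 5 it went from 1 to 2 with a pseudocount of 1, only the groups compared or the replicate block, 3 with quantile normalization, and 0 with a pseudocount of 0.01 or the term for Xist. From day 3 to day 10 it went from 7 to 3 with the term for Xist. In cells on D3 it went from 2 to 5 with only the groups compared, and in CTRL cells from GM to D3 from 0 to 1 with a pseudocount of 1. The cause was not tested. With a library left out, the counts ran from 0 to 3 (day 1 against day 0), 6 to 8 (day 3), 0 to 6 (day 5), 2 to 7 (day 1 to day 3), 0 to 2 (day 3 to day 5), 3 to 7 (day 3 to day 10), 0 to 2 (Cas9M3 against CTRL on D3), 0 to 4 (CTRL, GM to D3) and 0 to 1 (Cas9M3, GM to D3). A lone library left in a group is assumed to vary like the other groups. CTX replicate numbers did not pair the libraries (correlations -0.019 to 0.211). In cells, the replicate block left the members called in every comparison at the same count. Quantile normalization moved the median of all genes on day 3 against day 0 from 0.008 to -0.116. Few reads limit Fgf21 and Gdf15 at low levels.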

Other observations

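The level of Gdf15 in GM was 2.85 times higher in replicate 2 than in replicate 1 of CTRL cells, and 4.65 times higher in Cas9M3 cells. Fgf21 was 2.13 and 9.31 times lower in replicate 2 of the same lines, on 1 read in each of those libraries. Over all 13824 tested genes, 48.8% and 51.2% were higher in replicate 2.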
